A study of Mus musculus with 18 samples.

Results

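Transcripts of the nuclear-encoded subunits of respiratory complexes III and IV, of cytochrome c and of ATP synthase were examined in visceral fat (WAT) of diabetic mice with and without bezafibrate (BEZ), a fibrate that activates peroxisome proliferator-activated receptors (PPARs). The 42 genes were taken by name: every gene whose symbol on the array platform starts with Uqcr, with Cox followed by a digit from 4 to 8, or with Atp5, together with Cyc1 and Cycs, and without Cox8b and Cox7a1. Where a gene had several probe sets, the probe set of highest mean signal was used, which left 42 of 19938 genes. Of these, 9 encode complex III subunits, 1 encodes cytochrome c, 15 belong to complex IV and 17 to ATP synthase. All 42 were measured on all 18 arrays, and no filter on low signals was applied.

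All animals were male wildtype C57BL/6N mice of 5 to 6 months, and each of the 18 Affymetrix Mouse Gene 1.0 ST arrays stood for 1 mouse. The 7 Con, SD mice received citrate buffer as a mock injection and a standard diet (SD). The 6 STZ, SD mice were given streptozotocin (STZ, 65 mg/kg per day, intraperitoneally, on 5 consecutive days at 10 to 16 weeks of age), which destroys pancreatic beta cells, and stayed on the standard diet. The 5 STZ, BEZ mice had the same injections and, from 2 weeks later, chow with 0.25% or 0.5% (w/w) BEZ for 8 weeks, and which of these 2 doses a mouse ate is not given in the labels. The methods of the study give a slightly different STZ dose and the higher BEZ dose, and describe the controls as untreated. STZ, SD was compared with Con, SD for the effect of insulin deficiency, and STZ, BEZ with STZ, SD for the effect of BEZ.

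In the inner mitochondrial membrane, complex III takes electrons from ubiquinol and hands them to cytochrome c, a small carrier protein, and complex IV passes them from cytochrome c to oxygen. Both complexes pump protons, and ATP synthase lets the protons flow back through its ring of c subunits to drive ATP formation in its F1 head. White fat cells hold fewer mitochondria than brown fat cells, and the catalytic cores of complexes III and IV also contain subunits encoded in mitochondrial DNA. None of the 6 mitochondrially encoded subunits on the list (0 of 6) had a probe set with a single symbol, so the results concern nuclear transcripts.

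Signals are on a log2 scale, so differences are log2 fold changes, and levels of different genes are not compared with each other because probes differ in brightness. Array medians lay between 6.76 and 6.87. The tissue was checked with lists of marker genes. White adipocyte markers (13 of 14 genes measured) averaged 11.75 to 12.48 on the Con, SD arrays, 12.31 to 12.47 with BEZ, and 11.43, 11.43 and 10.11 on STZ, SD replicates 3, 4 and 6. Pancreas genes (16 of 19 measured) averaged 5.91 to 6.30 in Con, SD and STZ, SD replicates 1 to 5. In STZ, SD replicate 6 the pancreas genes averaged 13.37, and in STZ, BEZ replicates 1 to 4 they averaged 11.47, 9.64, 9.36 and 8.78, with 6.09 in replicate 5. Genes of epididymis and testis (18 of 20 measured) were highest on Con, SD replicates 3 and 5 (11.13 and 11.49) and STZ, SD replicate 3 (11.42). Brown adipocyte markers (10 of 10 measured) averaged 7.10 to 7.60 on the STZ, BEZ arrays, above every Con, SD array (6.36 to 7.02) and every STZ, SD array (6.31 to 6.92). Liver genes (10 of 10 measured) averaged 10.38 on STZ, BEZ replicate 5, against 6.89 to 7.46 on the other 4 arrays of that group, and their highest mean elsewhere was 9.31 on Con, SD replicate 2. Because the tissue was measured in bulk, fewer cells of a type and less RNA per cell cannot be told apart.

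With all arrays in the fit, 14 of the 42 genes were higher in STZ, BEZ than in STZ, SD and 0 were lower. The leading genes were Cyc1 (cytochrome c1 of complex III), Cycs (cytochrome c itself), Cox6a1 and Cox5b (complex IV) and Atp5md (ATP synthase), with log2 differences from 0.44 to 0.84. This was 33.3% of the genes. Of all genes tested, 0.682% were higher, 0.0251% were lower and 0.707% were called in either direction (limma, Benjamini-Hochberg adjusted p under 0.10 over all genes). The median difference of the 42 genes was 0.38, compared with 0.01 for all genes, and 39 of the 42 differences were positive. In 13 of the 42 genes every STZ, BEZ array lay above every STZ, SD array, which was the case for 1.04% of all genes, and in 0 did every array lie below, against 0.451% of all genes. Brown adipocyte markers were also higher, with 2 of 10 called, 0 lower and a median difference of 0.62, and with no overlap between the groups in the mean of the list. The calls included Cox8b (2.86), itself a complex IV isoform. Ucp1, the uncoupling protein that defines brown fat cells, was 6.31, 5.52, 5.93, 5.51 and 5.28 in STZ, BEZ. In STZ, SD it was 5.16 to 5.47, a range that holds only the value of STZ, BEZ replicate 5. The part of brown fat cells in the result was not tested. The number of calls changed with the arrays in the fit, as given further on, whereas the median of the 42 genes stayed between 0.25 and 0.41 in every alternative that was run.

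**Figure D1:**
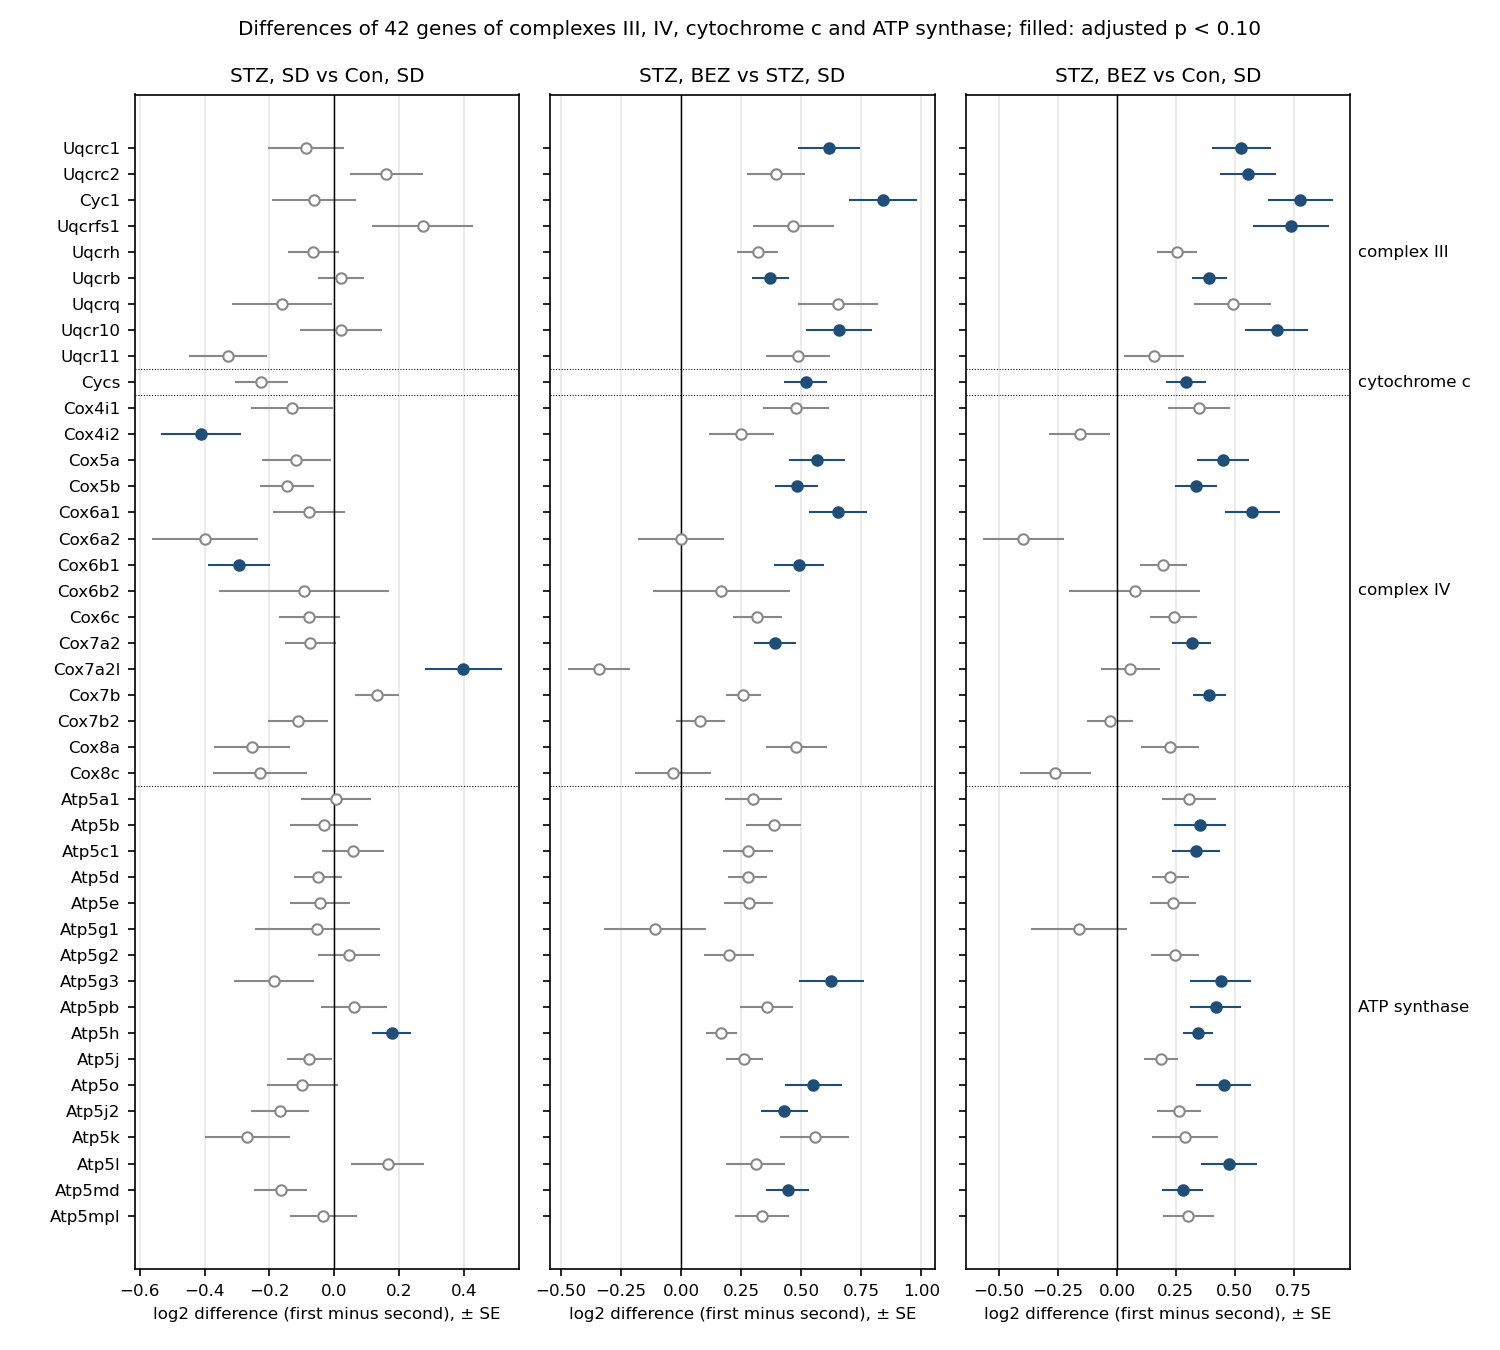
Differences between groups (first minus second, log2 scale, with the standard error as bars) of the 42 genes in the 3 comparisons, ordered by complex. Filled points have an adjusted p under 0.10 (limma): 4, 14 and 20 genes from left to right, and in the middle panel 39 of 42 points lie right of 0. The horizontal scale differs between panels.

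Complex III had 4 of its 9 genes called higher with BEZ, and the median difference to STZ, SD was 0.49. Cyc1 encodes the heme protein that passes electrons to cytochrome c. Its signal ran from 9.80 over a median of 10.08 to 10.43 in Con, SD and from 9.55 over 10.04 to 10.56 in STZ, SD, and the 5 STZ, BEZ arrays had 11.01, 10.86, 10.86, 10.81 and 10.82. Every STZ, BEZ array was therefore above all arrays of the other groups, while Con, SD and STZ, SD overlapped. The difference to STZ, SD was 0.84 (SE 0.14, adjusted p = 0.0254 by limma). Uqcr10, a small supernumerary subunit, ranged from 8.89 to 9.44 in Con, SD (median 9.07) and from 8.83 to 9.67 in STZ, SD (median 9.12), with 9.68, 9.93, 9.81, 9.87 and 9.84 in STZ, BEZ. The lowest STZ, BEZ value was just above the highest STZ, SD value, that of replicate 1, and Uqcr10 was higher by 0.66 (SE 0.14, adjusted p = 0.0639). Uqcrc1, a core protein that faces the matrix, rose by 0.62 (adjusted p = 0.0639), and Uqcrb, another supernumerary subunit, by 0.37 (adjusted p = 0.0635), both with groups that did not overlap. The other 5 genes of complex III were not called in this comparison. Of these, Uqcrq had a difference of 0.65 (adjusted p = 0.123), and the Rieske iron-sulfur protein gene Uqcrfs1 had 0.47 (adjusted p = 0.317).

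Cytochrome c carries electrons from complex III to complex IV. Cycs lay between 12.13 and 12.54 in Con, SD (median 12.22) and between 11.90 and 12.21 in STZ, SD (median 12.03). On the STZ, BEZ arrays it was 12.69, 12.60, 12.64, 12.56 and 12.30, with the lowest value on replicate 5. All 5 values were above those of STZ, SD, and the difference was 0.52 (SE 0.09, adjusted p = 0.0286). Each of the 6 STZ, SD arrays was below the mean of Con, SD, with a difference of -0.22 that was not called (adjusted p = 0.115).

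**Figure D2:**
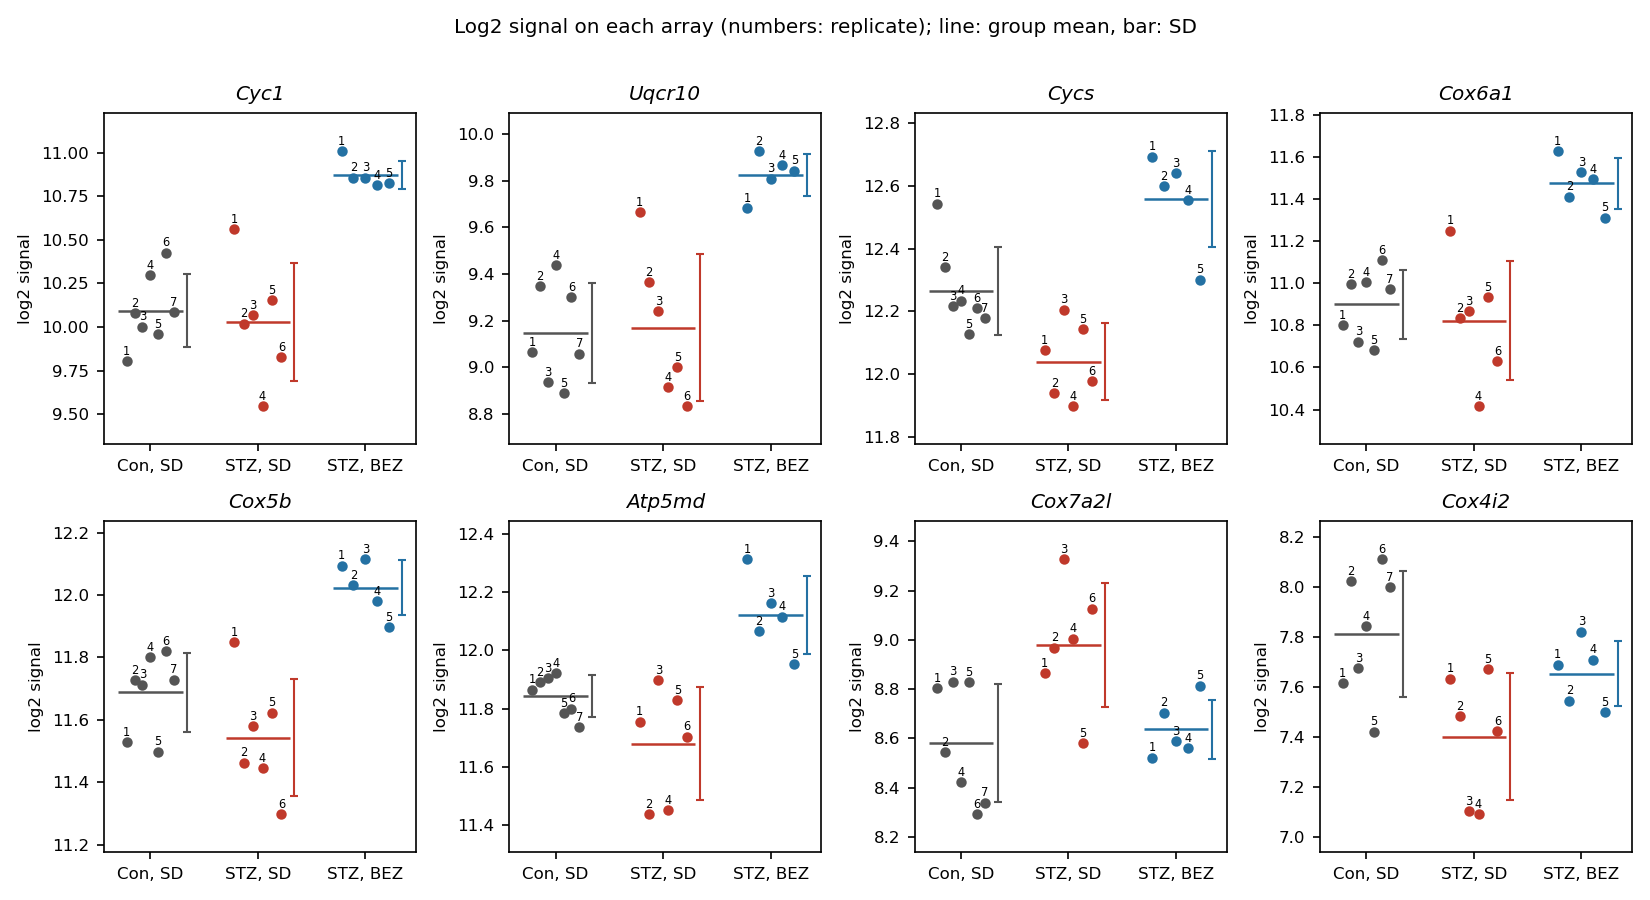
Log2 signal of 8 genes on each array, with the replicate number above each point, the group mean as a line and the SD as a bar beside it. In Cyc1 the 5 STZ, BEZ arrays (10.81 to 11.01) lie above all others, whereas Cox7a2l is highest in STZ, SD and Cox4i2 is lowest there. The vertical axes do not start at 0.

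Complex IV contains subunits with several isoforms, of which some are made in most tissues and others in few. Of the 9 genes for common isoforms, 5 were higher in STZ, BEZ than in STZ, SD and their median difference was 0.48, whereas 0 of 5 genes for restricted isoforms were called and their median was 0.08. This contrast between the isoform classes was not tested. Cox6a1 ranged from 10.68 to 11.11 in Con, SD (median 10.97) and from 10.42 to 11.25 in STZ, SD (median 10.85), and had 11.63, 11.41, 11.53, 11.49 and 11.31 in STZ, BEZ. No STZ, BEZ array overlapped with the other groups, and the gene was higher by 0.65 than in STZ, SD (SE 0.12, adjusted p = 0.0501). Cox5b ranged from 11.50 to 11.82 in Con, SD (median 11.73) and from 11.30 to 11.85 in STZ, SD (median 11.52), and had 12.09, 12.03, 12.11, 11.98 and 11.90 in STZ, BEZ. Here too the STZ, BEZ arrays were all highest, with a difference of 0.48 (SE 0.09, adjusted p = 0.0522). The further calls were Cox5a (0.57, adjusted p = 0.0621), which with Cox5b sits next to the catalytic core, Cox6b1 (0.49, adjusted p = 0.0641) and Cox7a2 (0.39, adjusted p = 0.0671). The other common isoforms missed the threshold. Cox4i1, with 11.06, 11.02, 11.04, 11.05 and 10.89 in STZ, BEZ, and Cox8a each had a difference of 0.48 (adjusted p = 0.181 and 0.141), and Cox6c had 0.32 (adjusted p = 0.250). Cox7b had 0.26 (adjusted p = 0.181), although its groups did not overlap.

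ATP synthase had 4 of its 17 genes called higher with BEZ, with a median difference of 0.31 and 16 positive differences. Atp5md, a small membrane subunit needed for dimers of the enzyme (now named Atp5mk), ranged from 11.73 to 11.92 in Con, SD (median 11.87) and from 11.44 to 11.90 in STZ, SD (median 11.73). It had 12.31, 12.07, 12.16, 12.12 and 11.95 in STZ, BEZ, all above the other groups, and the difference to STZ, SD was 0.44 (SE 0.09, adjusted p = 0.0621). Atp5o, part of the peripheral stalk that holds the F1 head still, rose by 0.55 (adjusted p = 0.0653), and the membrane subunit gene Atp5j2 rose by 0.43 (adjusted p = 0.0765). The F1 head genes Atp5a1 and Atp5b had differences of 0.30 and 0.39, and the 3 genes of the central stalk had 0.28 each, all without a call.

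The c ring, through which protons pass, is built from identical proteins that 3 genes encode, of which 1 was called. Atp5g3 (now Atp5mc3) ranged from 11.06 to 11.79 in Con, SD (median 11.33) and from 10.90 to 11.66 in STZ, SD (median 11.22), with 11.96, 11.89, 11.86, 11.79 and 11.79 in STZ, BEZ, and rose by 0.63 against STZ, SD (SE 0.14, adjusted p = 0.0653). Atp5g2 ranged from 11.75 to 11.96 in Con, SD (median 11.83) and from 11.42 to 12.10 in STZ, SD (median 12.00), with 12.01, 12.16, 12.05, 12.10 and 12.16 in STZ, BEZ, a difference of 0.20 that was not called (adjusted p = 0.541). Atp5g1 spread most, from 10.71 to 11.65 in Con, SD (median 11.01) and from 10.50 to 11.77 in STZ, SD (median 11.11), and had 10.78, 11.02, 10.87, 11.27 and 11.19 in STZ, BEZ. Its groups overlapped throughout, with a difference of -0.11 (SE 0.21, adjusted p = 0.920). Atp5g1 was highest on Con, SD replicates 1, 3 and 5 and STZ, SD replicate 3 (11.57 to 11.77). There, germ cell genes of the testis averaged 7.47 to 9.71. On STZ, BEZ replicate 1 they averaged 7.51, but Atp5g1 was 10.78. The part of other tissue in the values of Atp5g1 was not tested. The differences between the 3 c ring genes were not tested.

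**Figure D3:**
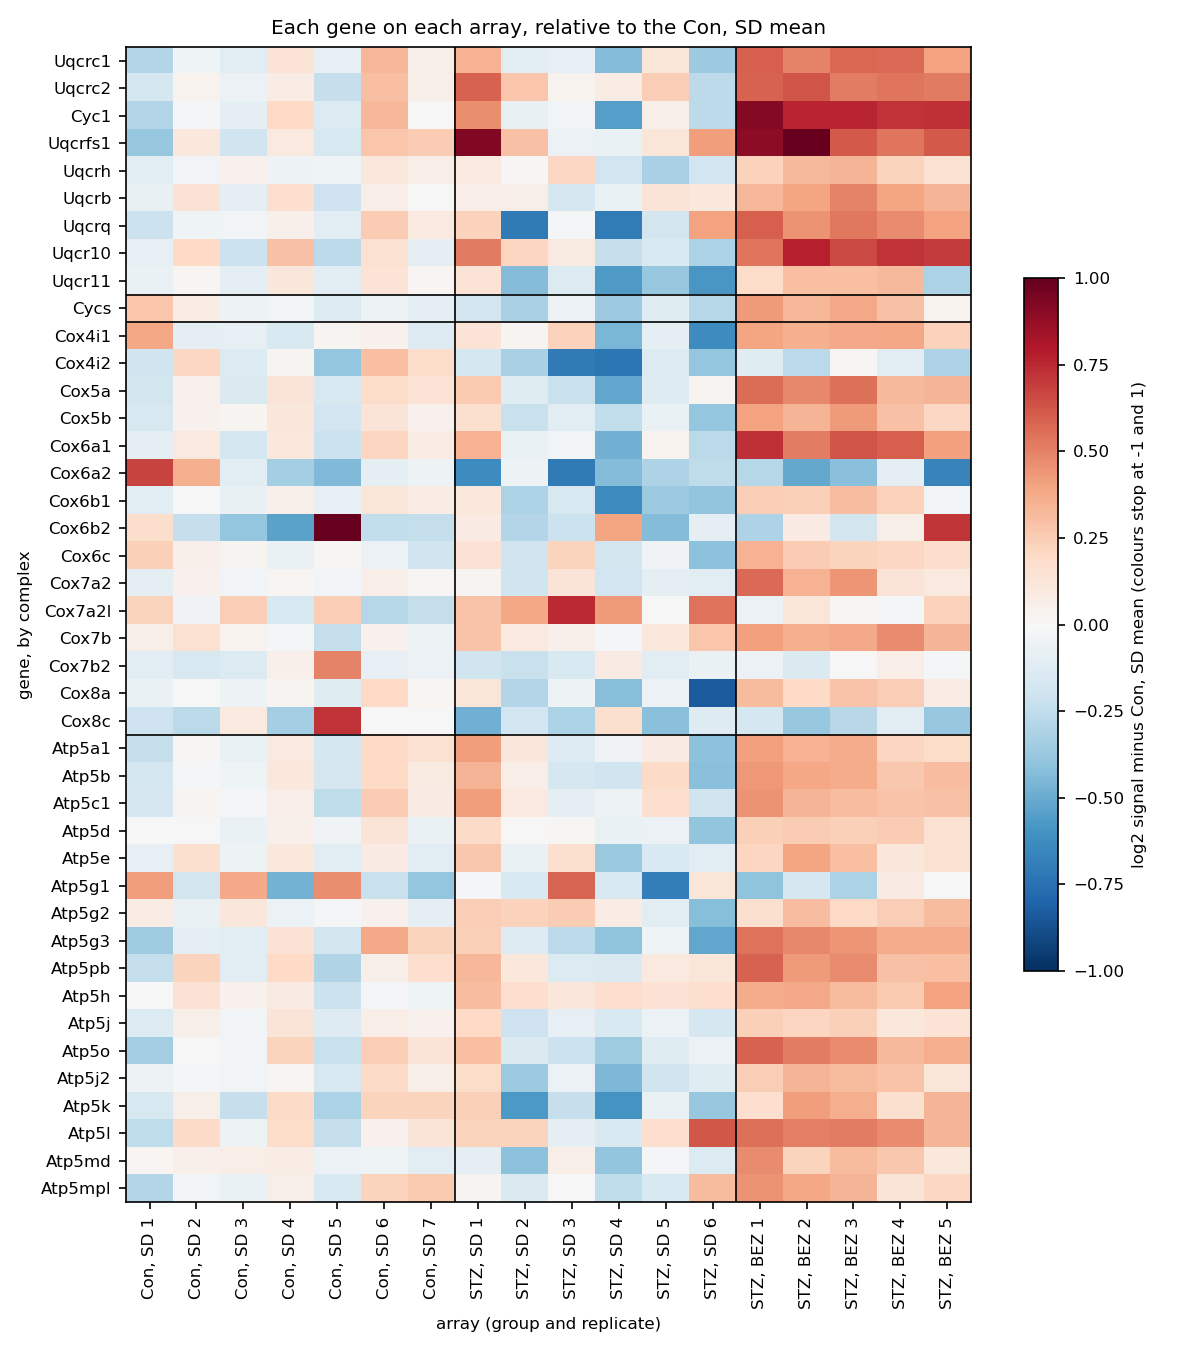
Log2 signal of each of the 42 genes on each array minus the gene's mean in Con, SD, with genes ordered by complex and arrays by group and replicate. Red is above and blue below the Con, SD mean, and colours stop at -1 and 1. The 5 STZ, BEZ columns are red in nearly all rows except those of Cox7a2l, Atp5g1 and the restricted isoforms of complex IV, and among the STZ, SD columns replicate 1 is the reddest.

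The single arrays of STZ, SD differed in the level of these genes. For the 37 genes other than restricted isoforms, the mean signal lay between 10.74 and 10.98 on the Con, SD arrays. The STZ, SD arrays spanned 10.61 to 11.10, and those of STZ, BEZ spanned 11.12 to 11.26. STZ, SD replicate 1 had the highest mean of its group (11.10) and was above the Con, SD mean in 34 of the 37 genes, whereas replicate 4 had the lowest (10.61) and was above it in 4. Each STZ, BEZ array was above the Con, SD mean in 35 or 36 of the 37 genes. Without STZ, SD replicate 1, the number of genes called against STZ, SD was 31.

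Markers of fat cells were low on some STZ, SD arrays, and the calls against STZ, SD were recounted with this in view. The white adipocyte list had a median difference of 0.75 between STZ, BEZ and STZ, SD with 0 of 13 genes called, and STZ, SD replicates 4 and 6 were low in both the adipocyte list (11.43 and 10.11) and the mean of the 37 genes (10.61 and 10.71). STZ, SD replicate 3 was low in the adipocyte list (11.43) but not in the mean of the 37 genes (10.87). With the mean of the adipocyte list as a covariate, 41 of the 42 differences were positive with a median of 0.31, but 0 were called, and Cyc1 and Cycs had 0.60 and 0.49 (adjusted p = 0.372 and 0.317). Without STZ, SD replicates 3, 4 and 6, the median was 0.30 and 0 genes were called. Without STZ, SD replicate 6 alone, the lowest in the adipocyte list, the median was 0.37 and 14 genes were called. Of these, 13 were called with all arrays in the fit. Pancreas genes were high on STZ, BEZ replicates 1 to 4 and highest on STZ, SD replicate 6. In STZ, BEZ against STZ, SD 0 of 16 were called, with a median difference of 2.18. STZ, BEZ replicate 5, with pancreas genes at 6.09 but liver genes at 10.38, was the lowest of its group in the mean of the 37 genes (11.12, others 11.18 to 11.26). In the median deviation from the Con, SD mean the lowest was STZ, BEZ replicate 4 (0.288), then replicate 5 (0.294), and the highest was 0.41. Without the 5 arrays with pancreas genes, the 1 STZ, BEZ array left is this replicate with its high liver genes, and its spread is assumed to be that of the other groups. In that fit the median against STZ, SD was 0.25 and 0 genes were called.

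The number called against STZ, SD also rested on single STZ, BEZ arrays and on the shared estimate of the spread. Without STZ, BEZ replicates 1, 2, 3, 4 or 5 it was 0, 1, 2, 2 and 8, and without STZ, SD replicates 2, 3 or 4 it was 2, 7 and 2. Without the 3 arrays highest in epididymis and testis genes (Con, SD replicates 3 and 5 and STZ, SD replicate 3) it was 1. In a fit on the STZ, BEZ and STZ, SD arrays alone, 0 genes were called (Cyc1 and Cycs both with an adjusted p of 0.123). Cyc1 kept its call when any array was left out except STZ, BEZ replicate 1 (adjusted p = 0.109), and Cycs when any was left out except STZ, BEZ replicates 1 or 2 (0.122 and 0.128).

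Against the nondiabetic mice, 20 of the 42 genes were higher in STZ, BEZ and 0 were lower. This was 47.6% of the genes, against 4.57% of all genes tested that were higher, 1.38% that were lower and 5.95% in either direction. The median difference was 0.30, compared with -0.01 for all genes, and 37 of 42 differences were positive. In 22 genes all 5 STZ, BEZ arrays lay above all 7 Con, SD arrays, which held for 5.17% of all genes, and 0 genes were separated in the other direction, against 1.64%. The calls were spread over 6 of 9 genes of complex III, cytochrome c, 5 of 15 genes of complex IV and 8 of 17 genes of ATP synthase. Of the 13 white adipocyte markers 0 were called here (median 0.32), whereas 4 of the 10 brown adipocyte markers were higher and 0 lower (median 0.28). Cox8b and Ppargc1a were among these 4. Ucp1 was 7.24 on Con, SD replicate 2 and 5.04 to 5.56 on the other Con, SD arrays. STZ, BEZ replicates 1 and 3 (6.31 and 5.93) lay above these others but below replicate 2. The part of brown fat cells in the result was not tested. Pancreas genes were higher too, with 5 of 16 called, 0 lower and a median difference of 3.25. Of the 18 genes of epididymis and testis, 2 were lower and 0 higher (median -2.55). The part of these tissues in the result was not tested. With the adipocyte list as a covariate 23 of the 42 genes were called, and with covariates for pancreas and epididymis genes 21 were. The number was 11 and 9 without STZ, BEZ replicates 1 or 2, and 8 without the 3 arrays highest in epididymis and testis genes. The share of all genes called in these fits is not given here.

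Cyc1 led this comparison as well, with a difference of 0.78 (SE 0.14, adjusted p = 0.00864) from the values given above. Atp5h, a subunit of the peripheral stalk, ranged from 11.31 to 11.67 in Con, SD (median 11.52) and from 11.64 to 11.84 in STZ, SD (median 11.69), and had 11.90, 11.91, 11.84, 11.79 and 11.92 in STZ, BEZ. All STZ, BEZ arrays were above Con, SD, and the difference was 0.35 (SE 0.06, adjusted p = 0.00934). Cox7b, a small subunit of complex IV, ranged from 11.88 to 12.27 in Con, SD (median 12.15) and from 12.10 to 12.40 in STZ, SD (median 12.21), with 12.52, 12.47, 12.50, 12.58 and 12.46 in STZ, BEZ, higher than Con, SD by 0.39 (SE 0.07, adjusted p = 0.00934). Uqcrb ranged from 11.43 to 11.81 in Con, SD (median 11.63) and from 11.47 to 11.76 in STZ, SD (median 11.70), with 11.97, 12.03, 12.13, 12.03 and 11.97 in STZ, BEZ. No STZ, BEZ array overlapped with the others, and Uqcrb was 0.39 above Con, SD (SE 0.07, adjusted p = 0.0109). Uqcr10 was 0.68 above Con, SD (SE 0.13, adjusted p = 0.0124). The catalytic and core genes of complex III were also higher, namely Uqcrfs1 by 0.74 (adjusted p = 0.0210), Uqcrc2 by 0.56 (adjusted p = 0.0168) and Uqcrc1 by 0.53 (adjusted p = 0.0296). In ATP synthase, the further calls included Atp5l (0.48, adjusted p = 0.0379), Atp5pb (0.42, adjusted p = 0.0430) and Atp5b, the catalytic beta subunit of the F1 head (0.35, adjusted p = 0.0902). Atp5l was highest of all arrays on STZ, SD replicate 6 (9.81), where pancreas genes averaged 13.37. With covariates for pancreas and epididymis genes, its difference to STZ, SD was 0.13 in place of 0.31. That of Atp5pb was 0.25 in place of 0.36, while the median of the 42 genes was 0.37. The part of pancreas tissue in these values was not tested.

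Insulin deficiency alone changed few of the genes. In STZ, SD against Con, SD, 2 of the 42 were higher and 2 were lower, which was 9.52% of them, against 10.3% of all genes tested (5.82% higher and 4.52% lower), so the share was close to that of all genes. The median difference was -0.08, compared with -0.03 for all genes, 12 differences were positive, and the groups overlapped in all 42 genes, while 1.13% of all genes lay wholly above and 0.487% wholly below. Cox7a2l has been linked to supercomplexes of complexes III and IV, which were not measured here. It ranged from 8.29 to 8.83 in Con, SD (median 8.55) and from 8.58 to 9.33 in STZ, SD (median 8.99), and had 8.52, 8.70, 8.59, 8.56 and 8.81 in STZ, BEZ. All 6 STZ, SD arrays were above the Con, SD mean, and Cox7a2l was higher by 0.40 (SE 0.12, adjusted p = 0.0584). Against STZ, SD its difference with BEZ was -0.34 (adjusted p = 0.351), the only value below -0.2 among the 42. Atp5h was higher by 0.18 in STZ, SD (SE 0.06, adjusted p = 0.0899). Cox4i2, the isoform of subunit 4 that is used under low oxygen, ranged from 7.42 to 8.11 in Con, SD (median 7.84) and from 7.09 to 7.67 in STZ, SD (median 7.46), and had 7.69, 7.55, 7.82, 7.71 and 7.50 in STZ, BEZ. Every STZ, SD array was below the Con, SD mean, and Cox4i2 fell by 0.41 on the log2 scale (SE 0.12, adjusted p = 0.0584). Its common counterpart Cox4i1 ranged from 10.51 to 11.05 in Con, SD and from 10.04 to 10.89 in STZ, SD, with a difference of -0.13 (adjusted p = 0.617).

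Cox6b1, a subunit of complex IV on the side of the intermembrane space, ranged from 11.50 to 11.73 in Con, SD (median 11.61) and from 10.98 to 11.72 in STZ, SD (median 11.26), with 11.85, 11.84, 11.91, 11.84 and 11.58 in STZ, BEZ. It fell by 0.29 in STZ, SD against Con, SD (SE 0.10, adjusted p = 0.0782) and rose by 0.49 in STZ, BEZ against STZ, SD, and both values use the same STZ, SD arrays. Against Con, SD its difference with BEZ was 0.20 (adjusted p = 0.311). Of the 4 calls in STZ, SD against Con, SD, 0 remained without Con, SD replicates 6 or 7, without STZ, SD replicate 4 or without the 5 arrays with pancreas genes, and 1 gene was called without STZ, SD replicate 2. Also, 2 genes were called without Con, SD replicates 2 or 4 or STZ, SD replicate 5, and 6 were called without STZ, SD replicates 1 or 3. The share of all genes called without these arrays is not given here.

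Of the restricted isoforms, Cox4i2 was described above, and the other 4 were highest on single Con, SD arrays. Cox6b2, Cox7b2 and Cox8c, isoforms known from testis, were each highest on Con, SD replicate 5, with 8.49, 5.09 and 7.47, while the other Con, SD arrays lay between 6.51 and 7.22, 4.43 and 4.65, and 6.41 and 6.84. On the same array a list of 14 germ cell genes of the testis averaged 9.71, the highest of all 18 arrays, against 5.92 to 8.39 on the others. The list also reached 8.39 on STZ, SD replicate 3 and 8.32 on Con, SD replicate 1, where Cox8c was 6.43 and 6.54. In STZ, BEZ the 3 genes were 6.74 to 7.76, 4.45 to 4.67 and 6.37 to 6.64. The 7.76 of Cox6b2 was on replicate 5, where the germ cell list had its lowest mean of all arrays (5.92). Cox6a2, the isoform of heart and skeletal muscle, was highest on Con, SD replicate 1 at 8.42, where 14 skeletal muscle genes also had their highest mean of 8.19, against 6.28 to 7.68 on the other arrays. In the other Con, SD arrays Cox6a2 was 7.30 to 8.09, in STZ, SD it was 7.03 to 7.69, and in STZ, BEZ it was 7.45, 7.23, 7.32, 7.65 and 7.07. None of these 4 genes was called in any comparison, and the part of other tissue in their values was not tested. Among the common counterparts, Cox8a ranged from 11.83 to 12.15 in Con, SD (median 11.95) and from 11.12 to 12.07 in STZ, SD (median 11.78), with 12.27, 12.15, 12.24, 12.20 and 12.03 in STZ, BEZ.

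**Figure D4:**
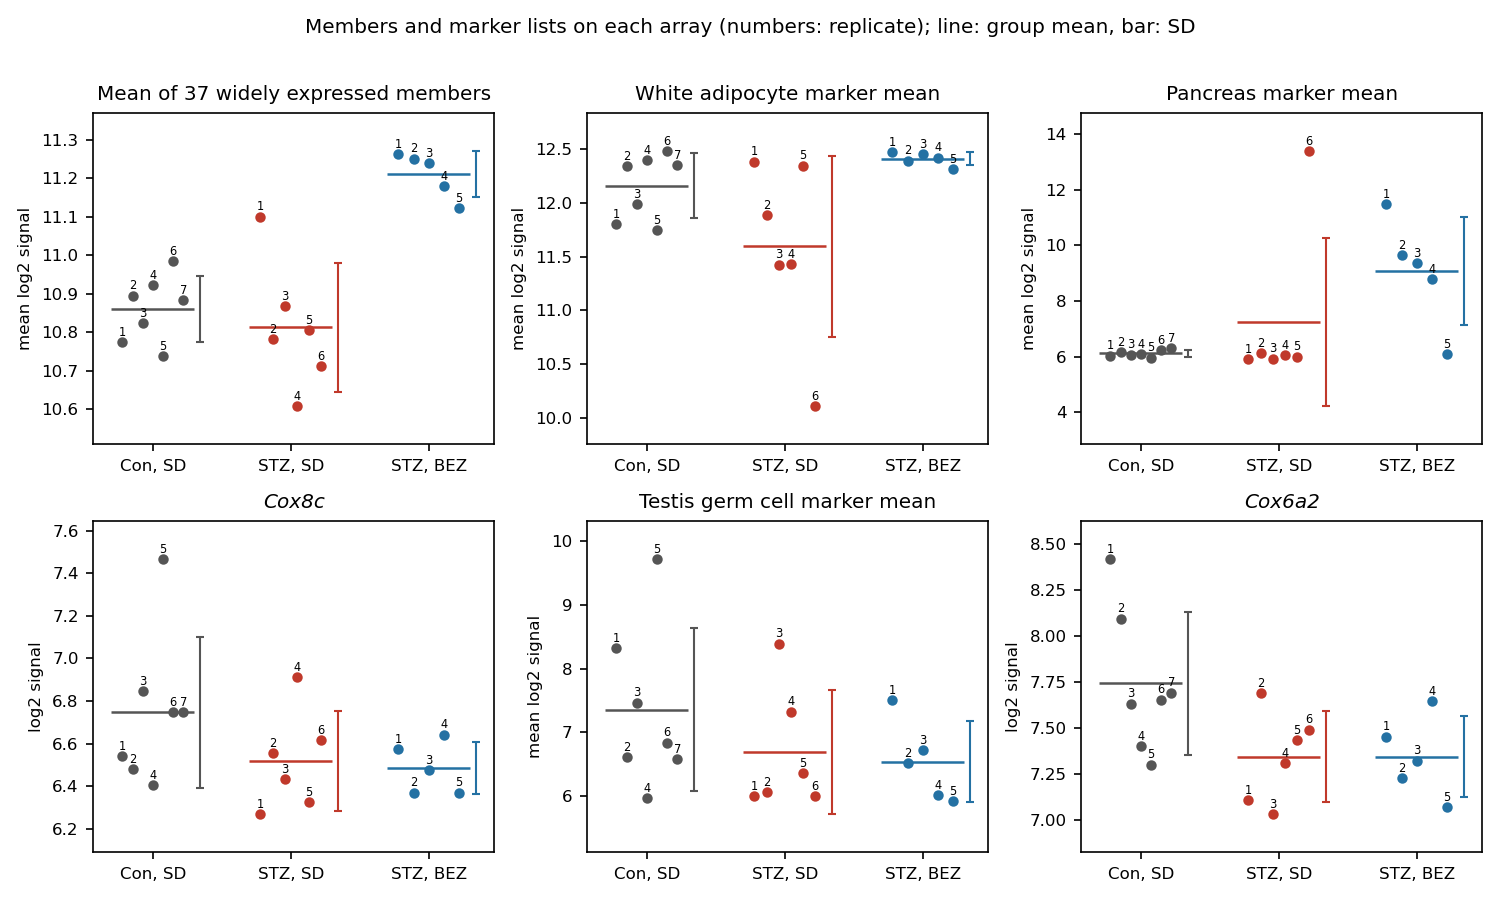
Mean log2 signal of the 37 genes other than restricted isoforms and of 3 marker lists, and log2 signal of Cox8c and Cox6a2, on each array, with replicate numbers, group means as lines and SD as bars. STZ, SD replicate 6 is lowest in adipocyte genes (10.11) and highest in pancreas genes (13.37), and Con, SD replicate 5 is highest both in Cox8c (7.47) and in the germ cell list (9.71). The vertical axes do not start at 0.

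Promoter sequences of 31 of the 42 genes were searched for motifs of factors known to drive respiratory genes, and 4 promoters are shown because they belong to 3 genes that rose with BEZ and hold a motif, and to Cox7a2l, whose difference went the other way. The window ran from 250 bases before to 50 bases after the start of each gene (RefSeq, GRCm38.p6), on both strands. The letters were GCGCA followed directly by its reverse complement for NRF1, CCGGAAG for GABPA, AAGGTCA for estrogen-related receptors, AAGATGGC for YY1 and, for a PPAR element, AGGTCA and a repeat of it with 1 base between them. The motifs of estrogen-related receptors and PPARs share the letters AGGTCA. The bases before the start are written 5′ to 3′ on the strand of the gene, and capitals mark the matches. Cox6a1 lies on the minus strand at chr5:115348959-115349128, Cox6b1 on the minus strand at chr7:30626115-30626214, Atp5g3 on the minus strand at chr2:73911327-73911426 and Cox7a2l on the minus strand at chr17:83514334-83514433.
Cox6a1: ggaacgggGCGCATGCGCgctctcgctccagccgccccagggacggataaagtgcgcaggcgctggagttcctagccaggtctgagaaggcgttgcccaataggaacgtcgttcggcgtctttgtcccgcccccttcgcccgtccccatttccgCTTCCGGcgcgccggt
Cox6b1: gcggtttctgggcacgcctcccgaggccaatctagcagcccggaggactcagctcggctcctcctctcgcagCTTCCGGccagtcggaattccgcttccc
Atp5g3: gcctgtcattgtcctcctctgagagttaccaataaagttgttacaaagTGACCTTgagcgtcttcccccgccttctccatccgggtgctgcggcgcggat
Cox7a2l: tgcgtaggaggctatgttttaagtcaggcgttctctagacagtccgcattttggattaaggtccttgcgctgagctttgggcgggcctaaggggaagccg

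Cox6a1 held the NRF1 letters and the GABPA letters, Cox6b1 held the GABPA letters, Atp5g3 held the letters of estrogen-related receptors, and the Cox7a2l window held none of the motifs. The windows of Atp5o, Cox5a, Cox5b, Cox7a2, Cycs and Uqcr10, which were also called higher with BEZ against STZ, SD, held none of them either. The NRF1 letters were in 4 of 31 promoters (12.9%), against 1.07% of the promoters of 27025 genes. GABPA letters were in 11 of 31 (35.5%), against 9.93%. Letters of estrogen-related receptors were in 4 of 31 (12.9%), against 5.38%, and those of YY1 in 3 of 31 (9.68%), against 3.19%. The PPAR element was in 0 of 31, against 0.0481% of all promoters. Among the 12 promoters of genes called higher in STZ, BEZ than in STZ, SD, 2 held NRF1 letters and 3 held GABPA letters, and among the other 19 promoters, 2 and 8 did. These counts describe letters in a window and not binding.

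Other genes of oxidative phosphorylation were set beside the 42. Complex I, which takes electrons from NADH, had 12 of 36 subunit genes (33.3%) higher in STZ, BEZ than in STZ, SD and 0 lower, with a median difference of 0.39. Against Con, SD, 20 of 36 were higher, and in STZ, SD against Con, SD 1 was higher and 3 were lower. Ndufb8 rose by 0.86 (adjusted p = 0.0594) and Ndufc1 by 0.68 (adjusted p = 0.0641) in STZ, BEZ against STZ, SD. Ndufa4 rose by 0.66 (adjusted p = 0.0662). It is within the 36 genes and the 12 calls because of its name, although it is now counted with complex IV. Of the 4 genes of complex II, 0 were called against STZ, SD (median 0.44), but Sdha and Sdhb, which form its catalytic part, were higher than in Con, SD by 0.76 and 0.63 (adjusted p = 0.0145 and 0.0307).

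Genes that help to assemble the complexes formed another list. Of 39 measured assembly genes, 2 were higher in STZ, BEZ than in STZ, SD and 0 were lower, with a median of 0.24. Atpaf2, a chaperone of the F1 head, was 9.85 ± 0.41 in Con, SD (SD, n = 7), 9.07 ± 0.55 in STZ, SD (n = 6) and 10.26 ± 0.18 in STZ, BEZ (n = 5), and rose by 1.19 (adjusted p = 0.0621 by limma). Cox19, which takes part in copper delivery to complex IV, rose by 1.00 (adjusted p = 0.0653). In STZ, SD against Con, SD, 2 were higher and 4 were lower, among them Atpaf2, which fell by 0.78 on the log2 scale (adjusted p = 0.0459). Of 14 regulators of respiratory chain genes, 0 were called in STZ, BEZ against STZ, SD, with the largest difference in Pparg (0.70, adjusted p = 0.597). Ppargc1a, a coactivator that drives mitochondrial gene expression, was 7.21 ± 0.27 in Con, SD (SD, n = 7), 8.48 ± 0.46 in STZ, SD (n = 6) and 8.79 ± 0.20 in STZ, BEZ (n = 5). It was thus higher than Con, SD by 1.27 in STZ, SD (adjusted p = 0.00514) and by 1.58 in STZ, BEZ (adjusted p = 0.00106 by limma). Nrf1 and Gabpa were higher in STZ, SD than in Con, SD by 0.38 and 0.34 (adjusted p = 0.0223 and 0.0623), while most of the 42 subunit genes had no call there.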

How the data were processed

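Visceral fat from 18 mice was measured with 1 array a mouse (Affymetrix, Mouse Gene 1.0 ST), and the labels gave the groups, of 5 (STZ, BEZ), 6 (STZ, SD) and 7 (Con, SD) mice. The values deposited by the authors are log2 signals from robust multi-array averaging, computed with Affymetrix Expression Console 1.2 according to the submitters' processing notes. The table holds 35556 probe sets in 18 columns, and 0 columns were left out. It gives no background level, and precision is limited by the number of arrays.

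Names came from the platform annotation, which is old: 21789 probe sets had 1 symbol, 1621 had several and 12146 had none here. Each symbol was represented by its brightest probe set on average, leaving 19938 genes. All 3 comparisons were taken from the same linear model of the 18 arrays, fitted with limma 3.58.1 (R 4.3.3; 15 residual and 2.44 prior degrees of freedom). P-values were Benjamini-Hochberg adjusted over all genes, and a gene was called at an adjusted p under 0.10. The code was tested on simulated data. Alternatives were SAM (the method of the study, with 100 permutations), other thresholds, normalizations, probe set rules and fits, covariates for tissue markers, and arrays left out. Leaving out several arrays together was chosen after seeing the data.

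The 42 genes and all lists were chosen with earlier results of these data known. Values by array are given for the 5 genes of smallest p in each comparison (among called genes where there are any), the restricted isoforms with their common counterparts, and the c subunit genes. Up to 4 genes of each other list are named, by p, with Cox8b and Cox7a1. Promoters are from RefSeq (GRCm38.p6), matched by gene ID for 31 of the 42 genes.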

Additional observations from a re-analysis of the deposited data

Results flagged for a closer look

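In 126 group-by-gene sets, 11 had a highest or lowest array whose gap to its nearest neighbour was large for the range of its group, where chance gives about 1 in 20 (6.3). Of these, 3 were restricted isoforms of complex IV on Con, SD replicate 5, namely Cox6b2 at 8.49 (others 6.51 to 7.22), Cox7b2 at 5.09 (others 4.43 to 4.65) and Cox8c at 7.47 (others 6.41 to 6.84), on the array where germ cell genes of the testis averaged 9.71.

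On STZ, BEZ replicate 5, the array of that group lowest in pancreas genes (mean 6.09, others 8.78 to 11.47) and highest in liver genes (mean 10.38, others 6.89 to 7.46), 4 genes were low: Uqcr11 at 10.54 (others 11.04 to 11.19), Cox4i1 at 10.89 (others 11.02 to 11.06), Cox6b1 at 11.58 (others 11.84 to 11.91) and Atp5d at 12.82 (others 12.90 to 12.92). Cyc1 was high on STZ, BEZ replicate 1 at 11.01 (others 10.81 to 10.86). STZ, SD replicate 1 was high in Atp5h at 11.84 (others 11.64 to 11.69) and in Atp5j at 11.89 (others 11.49 to 11.64), and Con, SD replicate 1 was high in Cox4i1 at 11.05 (others 10.51 to 10.70). The part of these marker genes in the values was not tested.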

How the results depend on the processing

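In STZ, SD against Con, SD 4 of the 42 genes were called, in STZ, BEZ against STZ, SD 14, and in STZ, BEZ against Con, SD 20 (8, 35 and 32 at an unadjusted p under 0.05). In that order, a fold of at least 1.5 gave 0, 5 and 3, and fits on only the groups compared gave 0, 0 and 32. An adjusted p under 0.05 gave 0 and 2 in the comparisons with STZ, SD. SAM gave 0 in STZ, SD against Con, SD and 35 in STZ, BEZ against Con, SD (34 higher, 1 lower). Its count in STZ, BEZ against STZ, SD is not given here, and other alternatives are likewise not listed for all 3 comparisons. Array weights gave 28 in STZ, BEZ against STZ, SD and 33 against Con, SD (32 higher, 1 lower). In STZ, BEZ against STZ, SD covariates for pancreas and epididymis genes gave 26 and the white adipocyte covariate gave 0. Without the 5 arrays with high pancreas genes, which leaves 1 STZ, BEZ array (replicate 5, with high liver genes) that is assumed to vary like the other groups, the counts were 0, 0 and 0, and the median of STZ, BEZ against STZ, SD was 0.25 in place of 0.38. Without the 3 STZ, SD arrays lowest in adipocyte markers they were 1, 0 and 31, and the median of STZ, SD against Con, SD was 0.01 in place of -0.08. Without the 3 arrays highest in epididymis genes, the comparisons with STZ, BEZ gave 1 (against STZ, SD) and 8 (against Con, SD). These exclusions were chosen after seeing the data. Leaving out each array in turn gave 0 to 6, 0 to 31 and 9 to 27. The share of all genes called under each alternative is not given here, so these counts do not show whether a change was particular to the 42 genes.

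With the replicate number as a replicate block the counts were 0, 0 and 13. Of 16 pairs of arrays with the same number, 2 deviated together with a correlation above 0.1 (range -0.36 to 0.70), so the numbers were not taken as pairs. Of 462 alternative values for 14 results of single genes, 346 kept their call, 116 lost it and 0 changed direction. The cause of lost calls was not tested.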

Other observations

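Cox7c, a complex IV subunit that is not among the 42 genes because its probe sets carry the further name Gm12338, was measured by 3 probe sets. Their differences were 0.27 to 0.31 in STZ, BEZ against STZ, SD (adjusted p = 0.0885 to 0.0896 by limma over all probe sets) and 0.25 to 0.28 against Con, SD (adjusted p = 0.0278 to 0.0372). These probe sets cannot tell Cox7c from Gm12338.

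Cox8b and Cox7a1, isoforms typical of brown fat and muscle, are not among the 42 genes. Cox8b was 8.99 ± 0.62 in Con, SD (SD, n = 7), 8.15 ± 0.56 in STZ, SD (n = 6) and 11.01 ± 0.39 in STZ, BEZ (n = 5), a rise of 2.86 over STZ, SD (adjusted p = 0.000793 by limma). Cox7a1 fell by 0.94 on the log2 scale in STZ, SD against Con, SD (adjusted p = 0.0377), and its difference with BEZ was 0.85 (adjusted p = 0.247).

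For 13 of the 42 genes other probe sets exist, 22 in all. Their differences had the direction of the probe set used in 22 of 22 cases in both comparisons with BEZ and in 21 of 22 in STZ, SD against Con, SD, where a dim probe set of Cycs had 0.15.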
